A study of Mus musculus with 12 samples.

Results

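The 10 glutathione S-transferase genes described here, Gsta2, Gsta3, Gsta4, Gstm1, Gstm2, Gstm3, Gstm4, Gstp1, Gstt1 and Gstt3, were measured in mouse liver. They were chosen by name. Each symbol was looked up in the table of transformed values, which lists 17859 genes, and joined by its Ensembl identifier to the count table, which lists 51912 genes. All 10 were found in both tables, and all 10 were among the 8594 genes with enough counts to be tested.

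Glutathione S-transferases join the tripeptide glutathione to reactive, electron-poor compounds, which makes these more soluble and prepares them for export from the cell. The soluble enzymes form classes named by Greek letters, and the 10 genes belong to the alpha (Gsta), mu (Gstm), pi (Gstp) and theta (Gstt) classes. In liver they are part of the second phase of drug metabolism, after oxidation by the cytochromes P450, and several of them are known targets of the stress sensor NRF2 and of the drug-sensing nuclear receptors CAR and PXR.

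The study gave adult male mice CITCO, a small molecule that activates human CAR more readily than mouse Car. One aim was to learn what part CAR plays in the gene response to CITCO. CITCO was injected into the abdomen at 10 mg/kg once a day for 4 days, and livers were taken on day 5. There were 4 groups of 3 libraries. WT corn oil denotes wild-type mice given the vehicle, and WT CITCO wild-type mice given the compound. The hCAR/hPXR CITCO mice carried human CAR and human PXR in place of the mouse receptors, and the Car KO/hPXR CITCO mice lacked Car and carried human PXR. The modified lines had a C57BL/6NTac background; the strain of the wild-type mice and the exact ages were not given in the sources used here. Corn oil was given to WT mice only among these samples, so in the modified lines a response to CITCO and a standing effect of the genotype cannot be told apart.

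Only the 3' end of each transcript was sequenced, so a transcript gives about the same number of reads whatever its length, and values are given in CPM, the share of a library's counts scaled by TMM, without division by length. Library totals ran from 1167027 counts in hCAR/hPXR CITCO 3 to 2341572 in WT corn oil 1, where 3 counts corresponded to 2.5 and 1.34 CPM respectively. The methods give 3 mice a group but the labels do not tie each library to an animal, so p-values measure the spread between libraries of a group. A gene is called here when its adjusted p-value was under 0.05 in edgeR's quasi-likelihood test of all 12 libraries, with Benjamini-Hochberg adjustment over the 8594 genes.

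The tissue label was checked first. The 9 hepatocyte markers, of which Alb was the most abundant, summed to between 27634 and 43998 CPM in every library, against 14.8 to 31.4 CPM for 7 bile duct markers and 2.31 to 13.1 CPM for 7 lymphocyte markers. The genotypes were checked next. Nr1i2, the mouse gene of PXR, had 199, 100 and 155 counts in WT corn oil, 114, 113 and 126 in WT CITCO, 0, 1 and 0 in hCAR/hPXR CITCO and 2, 0 and 0 in Car KO/hPXR CITCO libraries. Nr1i3, the mouse gene of Car, was at 73.3 to 146 CPM in the 6 WT libraries and at 0 to 5 CPM in the other 6. Both genes separated WT from modified mice in all 12 libraries. They were near 0 in both modified lines, so they cannot tell hCAR/hPXR from Car KO/hPXR libraries.

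Most of the highest and lowest values of the listed genes lay in 3 libraries. The library hCAR/hPXR CITCO 3 held the highest value of 4 of the 10 genes and the lowest value of 2, and Car KO/hPXR CITCO 1 did the same. WT CITCO 2 held the lowest value of 4 of the 10, which were the 4 listed mu genes. How many extremes each library held over all genes was not computed. Over the 500 most different genes of each pair, the mean distance of hCAR/hPXR CITCO 3 to the other libraries of its group was 2.03 (log2 scale). Only WT CITCO 3 had a higher value, 2.04, and the lowest was 1.78. For Car KO/hPXR CITCO 1 and WT CITCO 2 this distance was 1.94 and 1.97.

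Across the 4 comparisons, 2 listed genes were called, and both belong to the mu class. Over all genes the numbers called depended on single libraries: 35, 22, 50 and 20 genes were called in the 4 comparisons, and 14 to 34, 5 to 59, 9 to 63 and 5 to 57 with 1 library left out. Gstm3 was higher in hCAR/hPXR CITCO than in WT CITCO livers. Gstm2 was higher in Car KO/hPXR CITCO than in WT CITCO livers. The comparisons share libraries (WT CITCO enters 3 of them), so their values are set side by side below and are not independent of each other.

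Between hCAR/hPXR CITCO and WT CITCO, 1 of the 10 genes was called, beside 0.407% of all genes tested by edgeR. At an unadjusted p under 0.05 there were 4 of the 10, beside 8.81% of all genes. In 3 of the 10 (Gstm2, Gstm3 and Gstm4) all hCAR/hPXR libraries lay above all WT CITCO libraries, and in 0 of the 10 below, beside 7.12% of all genes above and 6.53% below. The median log2 fold change of the 10 was 0.47, beside 0.013 over all genes, with values from -0.13 for Gstt1 to 2.57 for Gstm3. The median of the 10 depended on single libraries: it was 0.284 without hCAR/hPXR CITCO 3 and 0.598 without WT CITCO 3, and 0.26 in limma on the deposited transformed values.

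Between Car KO/hPXR CITCO and WT CITCO, 1 of the 10 was called, beside 0.256% of all genes tested by edgeR (0.163% higher and 0.0931% lower), and 5 had an unadjusted p under 0.05, beside 9.3% of all genes. All Car KO/hPXR libraries lay above all WT CITCO libraries in 4 of the 10 (Gstm2, Gstm3, Gstm4 and Gstt1), and lay below in 0 of the 10, beside 7.45% of all genes above and 6.77% below. The median log2 fold change was 0.53, beside -0.004 over all genes, and lay between 0.403 and 0.717 with 1 library left out. Values ran from -0.45 for Gstp1 to 1.22 for Gstm3. Over the alternatives that of Gstp1 ran from -0.69 to -0.18 and that of Gstm3 from 0.78 to 1.70.

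Between the hCAR/hPXR and Car KO/hPXR groups, which differ in whether a CAR receptor is present, edgeR called 0 of the 10, beside 0.582% of all genes (0.303% higher and 0.279% lower). At an unadjusted p under 0.05 there were 5 of the 10 (10.6% of all genes). DESeq2's Wald test called 2, Gstm3 and Gstt1, beside 120 of the 4021 genes to which it gave an adjusted p (2.98%). Limma on the deposited transformed values called 1, Gstt1, beside 57 of 17859 genes (0.319%). Gstm3 and Gstp1 were above, and Gstt1 below, in all hCAR/hPXR libraries, which makes 3 of the 10 beside 15.1% of all genes (8.01% above and 7.06% below). The median log2 fold change was -0.17, beside 0.013 over all genes, and was -0.024 without hCAR/hPXR CITCO 1, -0.065 without hCAR/hPXR CITCO 2, -0.074 without Car KO/hPXR CITCO 1 and -0.04 without Car KO/hPXR CITCO 2.

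Between WT CITCO and WT corn oil, the comparison of compound with vehicle in one genotype, edgeR called 0 of the 10, beside 0.233% of all genes (0.0582% lower). DESeq2 and limma also called 0, and 3 of the 10 had an unadjusted p under 0.05, beside 9.13% of all genes. In 4 of the 10 (Gsta4, Gstm2, Gstm4 and Gstt1) every WT CITCO library lay below every WT corn oil library, beside 7.85% of all genes, and in 0 of the 10 above. The median log2 fold change was -0.268, beside 0 over all genes, and was -0.161 without WT corn oil 1 and -0.079 without WT CITCO 2. For 5 of the 10 (Gsta4 and the 4 mu genes) the WT CITCO group had the lowest mean of the 4 groups. The share of all genes with WT CITCO lowest was not computed. The 4 mu genes all had their lowest value in WT CITCO 2.

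**Figure D1:**
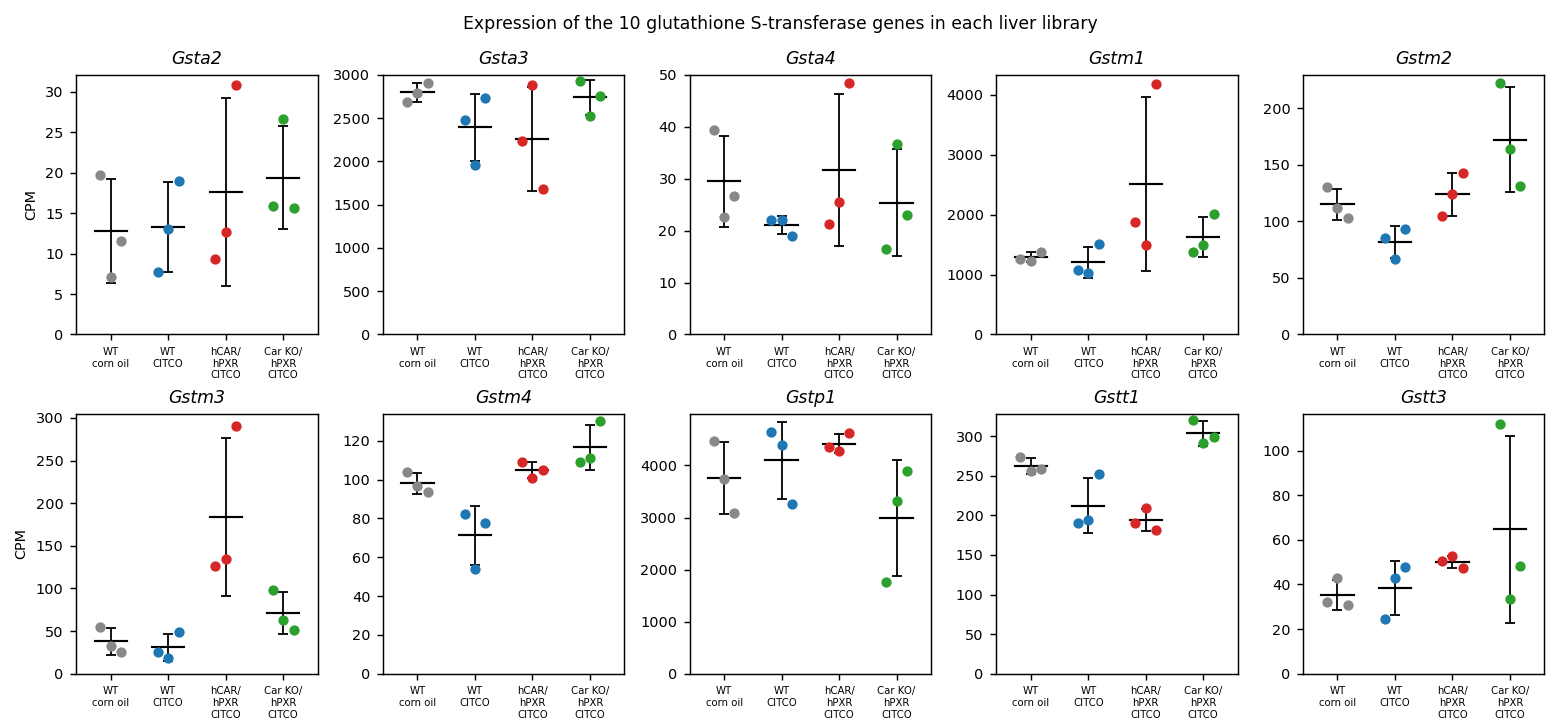
CPM (vertical axis, linear, from 0) of the 10 genes in each library, grouped by genotype and treatment on the horizontal axis; each point is 1 library, horizontal lines are group means and bars are 1 SD (n = 3). Gstm3 lies between 126 and 291 CPM in hCAR/hPXR CITCO libraries, above all 9 others, and the 3 WT CITCO libraries are the lowest for Gstm2 and Gstm4.

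The plot of CPM by library shows how the 10 genes vary. Within a group the SD of Gstm3 was 34.7% to 50.9% of its mean, and that of Gstt1 3.71% to 16.4%. Among all 12 libraries the highest value was 15.6 times the lowest for Gstm3, 4.56 times for Gstt3, 4.38 times for Gsta2 and 1.75 times for Gsta3.

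**Figure D2:**
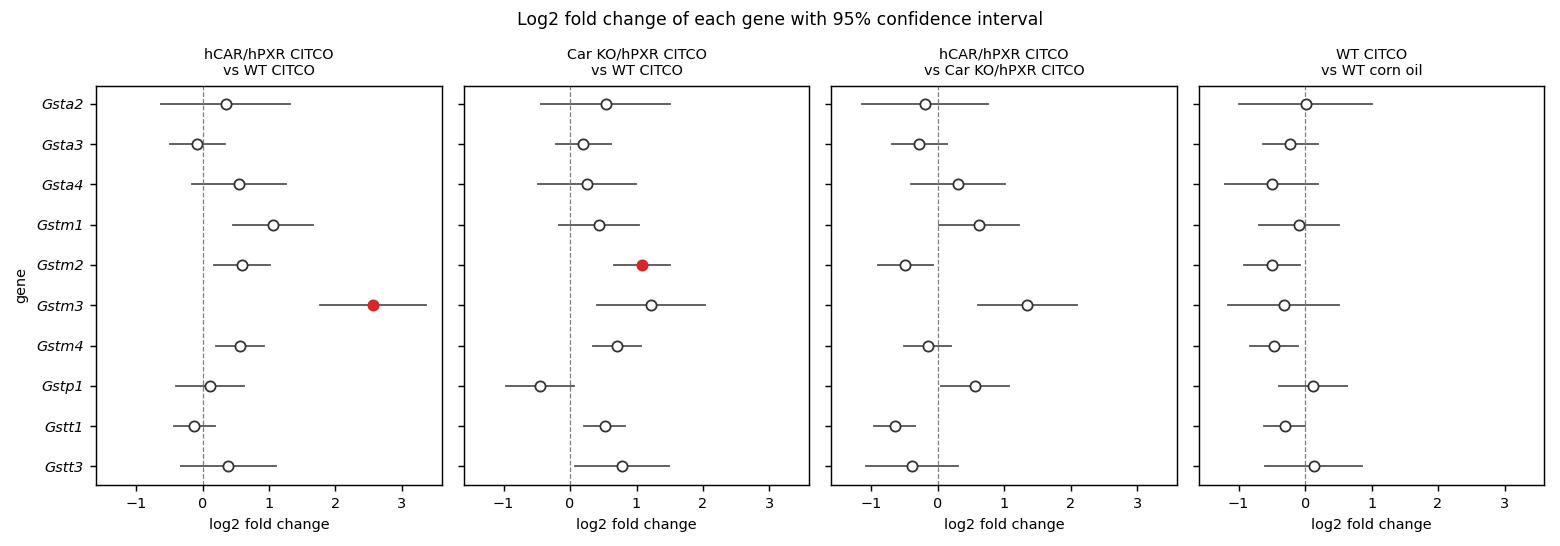
Log2 fold change (horizontal axis) of each of the 10 genes (vertical axis) in the 4 comparisons; points are estimates of edgeR's fit, lines their 95% confidence intervals, and filled points are called. The filled points are Gstm3 at 2.57 in the left panel and Gstm2 at 1.08 in the panel beside it.

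The mu class is encoded in mouse by 7 genes in one cluster on chromosome 3 of GRCm38. The cluster spans 149 kb, from 107895821 to 108044894. In order of position it holds Gstm5, Gstm7, Gstm6, Gstm3, Gstm2, Gstm1 and Gstm4, of which Gstm5 lies on the forward strand and the others on the reverse strand. The listed mu genes are the last 4 in this order, and the start sites of Gstm3 and Gstm4 are at 73.5 and 149.1 kb from that of Gstm5.

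Gstm3 (ENSMUSG00000004038, chr3:107963696-107969283, reverse strand) encodes a soluble mu-class transferase. It was at 55.1, 32.4 and 26 CPM in WT corn oil libraries and at 25.3, 18.7 and 48.5 CPM in WT CITCO libraries. In hCAR/hPXR CITCO libraries it was at 126, 135 and 291 CPM, and in Car KO/hPXR CITCO libraries at 98.5, 63.5 and 50.9 CPM. Every hCAR/hPXR library was above every other library, while the Car KO/hPXR libraries lay above WT CITCO but overlapped WT corn oil. The mean was 184 ± 92.6 CPM in hCAR/hPXR CITCO and 30.8 ± 15.7 CPM in WT CITCO livers (SD, n = 3 each). In the fit the difference was 5.93-fold, a log2 fold change of 2.57 (standard error 0.38, 95% confidence interval 1.77 to 3.36), with an adjusted p of 0.00205 in edgeR's quasi-likelihood test. Gstm3 ranked at position 10 of the 8594 genes by p-value in this comparison.

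The Gstm3 call between hCAR/hPXR CITCO and WT CITCO was made under all 12 alternatives. Without hCAR/hPXR CITCO 3, the library with 291 CPM, the log2 fold change was 2.09 (adjusted p = 0.00979 by edgeR). The lowest value, 1.81, came from limma on the deposited transformed values, a scale that compresses changes of genes with few counts. Against Car KO/hPXR CITCO, Gstm3 was 2.55-fold higher in hCAR/hPXR CITCO livers in the fit (log2 fold change 1.35, standard error 0.35), which did not pass the threshold in edgeR (adjusted p = 0.103). DESeq2's Wald test called this difference (adjusted p = 0.0197), as did edgeR without a filter on low counts (adjusted p = 3.94e-08). Over the alternatives its log2 fold change ran from 0.87 to 1.67 and the adjusted p reached 0.376. The Car KO/hPXR CITCO livers in turn had a Gstm3 log2 fold change of 1.22 over WT CITCO (95% confidence interval 0.40 to 2.03, adjusted p = 0.256 by edgeR). Only the fit without a filter called it (adjusted p = 2.49e-05 by edgeR). That fit called many more genes, 184 against 35 in the main fit between hCAR/hPXR CITCO and WT CITCO. There it gave Gstm3 an adjusted p of 2.38e-27 (edgeR) at the same log2 fold change, 2.57, so its calls are more lenient. Between WT CITCO and WT corn oil the log2 fold change of Gstm3 was -0.32, with a 95% confidence interval of -1.16 to 0.51 (adjusted p = 0.863 by edgeR).

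Gstm2 (ENSMUSG00000040562, chr3:107981702-107986453, reverse strand) is the next gene of the cluster and encodes another mu-class enzyme. Its values were 130, 112 and 103 CPM in WT corn oil, 85, 66.4 and 93.6 CPM in WT CITCO, 105, 124 and 143 CPM in hCAR/hPXR CITCO and 222, 164 and 131 CPM in Car KO/hPXR CITCO libraries. All WT CITCO libraries lay below all 9 others, and the highest value was in Car KO/hPXR CITCO 1. The Car KO/hPXR mean was 172 ± 46.1 CPM against 81.6 ± 13.9 CPM in WT CITCO (SD, n = 3 each). In the fit the difference was 2.12-fold, or 1.08 on the log2 scale (standard error 0.20, 95% confidence interval 0.66 to 1.51, adjusted p = 0.0304 in edgeR's quasi-likelihood test). This call was lost when 1 of 4 libraries was left out: the adjusted p (edgeR) was 0.154 without WT CITCO 1, 0.191 without WT CITCO 2, 0.115 without Car KO/hPXR CITCO 1 and 0.0653 without Car KO/hPXR CITCO 2. The log2 fold change then lay between 0.85 and 1.11.

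In the other comparisons Gstm2 was not called. Its log2 fold change between hCAR/hPXR CITCO and WT CITCO was 0.60 (95% confidence interval 0.17 to 1.02, adjusted p = 0.325 by edgeR). Between the modified lines it was -0.49, the higher mean being that of Car KO/hPXR CITCO (adjusted p = 0.372 by edgeR). WT CITCO was at -0.50 against WT corn oil (95% confidence interval -0.92 to -0.07, adjusted p = 0.457 by edgeR).

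The start regions of the 2 called genes are printed here because the genes are neighbours and differ in which comparison called them. RefSeq start regions on GRCm38.p6, 250 bases before to 50 after the start of transcription, were matched for 9 of the 10 genes; Gsta4 had no entry. Both are given 5' to 3' on the strand of the gene.
Gstm3 (chr3:107969125-107969424, reverse strand): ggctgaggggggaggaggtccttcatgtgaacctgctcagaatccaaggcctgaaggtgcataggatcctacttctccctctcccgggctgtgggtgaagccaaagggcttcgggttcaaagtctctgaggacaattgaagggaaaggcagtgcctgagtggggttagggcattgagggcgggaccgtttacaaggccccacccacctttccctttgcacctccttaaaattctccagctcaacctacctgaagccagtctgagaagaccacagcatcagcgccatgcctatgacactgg
Gstm2 (chr3:107986371-107986670, reverse strand): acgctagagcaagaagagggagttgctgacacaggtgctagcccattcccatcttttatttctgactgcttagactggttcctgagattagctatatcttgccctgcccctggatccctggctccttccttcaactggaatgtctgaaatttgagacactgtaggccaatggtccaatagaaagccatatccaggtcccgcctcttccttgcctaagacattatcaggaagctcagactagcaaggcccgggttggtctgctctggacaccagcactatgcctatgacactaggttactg
Neither holds a match, on either strand, of TGACNNNGC (the core of the antioxidant response element that NRF2 binds), of AGGTCA or AGTTCA (hexamers from which CAR and PXR sites are built) or of TATAAA (the TATA box), which is why no base is in capitals. Of the 32851 start regions of this length in the table, 12.4% held TGACNNNGC, 16.3% AGGTCA, 14% AGTTCA and 13.6% TATAAA. Among the 9 matched genes, TGACNNNGC was found in Gsta3 alone, as TGACATTGC beginning 121 bases before the start site. AGGTCA was found in Gstm1 alone, in 1 of its 2 start regions and 5 bases before the start site, AGTTCA in 0 genes and TATAAA in 2 (Gstm1 and Gsta2). AGGTCA read on the other strand is TGACCT, so a match of it can overlap one of TGACNNNGC; the matches here did not overlap. These matches describe letters in a window of 300 bases and say nothing of binding, and distant enhancers lie outside the window.

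Gstm1 (ENSMUSG00000058135, chr3:108012255-108017973, reverse strand) took between 69.1% and 85.7% of the counts of the mu class in each library. It was at 1255, 1228 and 1380 CPM in WT corn oil and at 1079, 1032 and 1506 CPM in WT CITCO libraries. The hCAR/hPXR CITCO libraries had 1868, 1491 and 4175 CPM, and the Car KO/hPXR CITCO libraries 1382, 1493 and 2002 CPM. The value of 4175 CPM in hCAR/hPXR CITCO 3 stood apart from the other 11 libraries, and hCAR/hPXR CITCO 2 was below the highest WT CITCO library. The log2 fold change between hCAR/hPXR CITCO and WT CITCO was 1.06 (standard error 0.29, adjusted p = 0.178 by edgeR). It was 0.48 without hCAR/hPXR CITCO 3 (adjusted p = 0.558), and the gene was called without hCAR/hPXR CITCO 2, with 1.33 (adjusted p = 0.0427 by edgeR). The fit without a filter on low counts also called it (adjusted p = 1.66e-05 by edgeR). That fit called 184 genes in this comparison, against 35 in the main fit.

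Gstm4 (ENSMUSG00000027890, chr3:108040408-108044894, reverse strand) was at 104, 96.6 and 93.6 CPM in WT corn oil, 82.4, 53.9 and 77.4 CPM in WT CITCO, 109, 101 and 105 CPM in hCAR/hPXR CITCO and 109, 111 and 130 CPM in Car KO/hPXR CITCO libraries. As for Gstm2, the 3 WT CITCO libraries were below all 9 others. The log2 fold change over WT CITCO was 0.56 in hCAR/hPXR CITCO (adjusted p = 0.258 by edgeR) and 0.71 in Car KO/hPXR CITCO (adjusted p = 0.106 by edgeR). DESeq2's Wald test called the latter (adjusted p = 0.0204). WT CITCO against WT corn oil gave -0.46 (95% confidence interval -0.82 to -0.10, adjusted p = 0.378 by edgeR).

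The other 3 genes of the cluster, which were not on the list, were not called in any comparison by edgeR, DESeq2 or limma. Gstm6 was at 73.1 ± 21.6 CPM in WT CITCO, 93.6 ± 13.7 in hCAR/hPXR CITCO and 107 ± 7.55 in Car KO/hPXR CITCO livers (SD, n = 3 each). Over WT CITCO its log2 fold changes were 0.35 and 0.55, the latter without overlap of libraries (adjusted p = 0.366 by edgeR). Gstm7 and Gstm5 had log2 fold changes of -0.23 and -0.35 between hCAR/hPXR CITCO and WT CITCO, and of 0.39 and 0.12 between Car KO/hPXR CITCO and WT CITCO. In the plot along the cluster all 7 genes were above 0 in Car KO/hPXR against WT CITCO, and Gstm6 and the 4 listed genes, which lie side by side, were above 0 in hCAR/hPXR against WT CITCO.

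**Figure D3:**
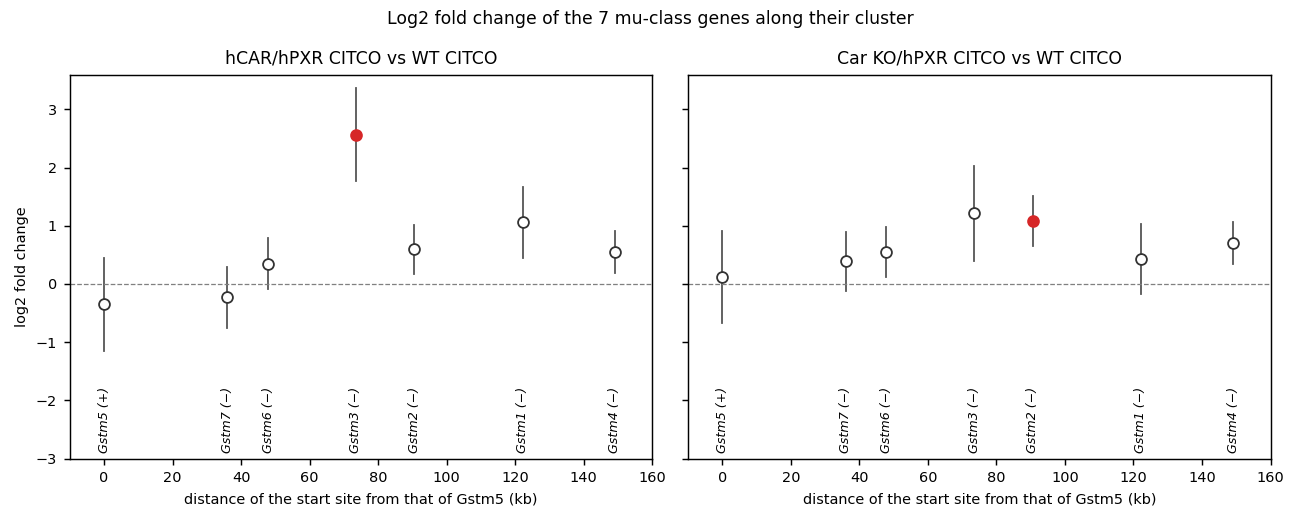
Log2 fold change (vertical axis) of the 7 mu-class genes against the distance of each start site from that of Gstm5 in kb (horizontal axis), with the strand in brackets; lines are 95% confidence intervals and filled points are called. In hCAR/hPXR CITCO against WT CITCO the values are -0.35, -0.23 and 0.35 for Gstm5, Gstm7 and Gstm6 and from 0.56 to 2.57 for the next 4 genes.

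Summed over the 7 genes, the mu class made 1672 ± 59 CPM in WT corn oil, 1507 ± 320 in WT CITCO, 3056 ± 1582 in hCAR/hPXR CITCO and 2148 ± 266 in Car KO/hPXR CITCO livers (SD, n = 3 each). In single libraries the sum was 2336, 1962 and 4870 CPM for hCAR/hPXR CITCO and 1371, 1278 and 1873 CPM for WT CITCO. The sums of these groups did not overlap, and the large SD came from hCAR/hPXR CITCO 3. The Car KO/hPXR CITCO sums were 1999, 1991 and 2455 CPM. They also lay above all WT CITCO sums, and they overlapped those of hCAR/hPXR CITCO. The share of all genes was not computed for such sums. Gstm3 took from 5.41% to 6.9% of the class counts in hCAR/hPXR CITCO libraries and from 1.46% to 2.59% in WT CITCO libraries, so its share was higher as well as its level.

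Near copies of a gene can exchange reads in the counting, and this was measured on the transcripts. Of the 451 windows of 50 bases in the last 500 bases of the Gstm3 transcript, 4 (0.887%) also occurred in Gstm1, and for Gstm2 14 (3.1%) occurred in the pseudogene Gm6665, which had 0 counts in all libraries. For Gsta2 the share was 51%, with Gsta1 and 3 predicted genes, and for Gstp1 it was 75.2%, with Gstp2 and the pseudogene Gstp-ps. The other 6 listed genes shared at most 0.887%. Deposited counts of Gsta2 were not whole (further than 1e-06 from a whole number) in 12 of 12 libraries, as happens when reads are divided between genes. Those of Gstp1 were not whole in 8 libraries, by up to 0.49, and those of Gstm1 and Gstm3 departed from whole numbers by at most 0.17. In the annotation Gsta3 is overlapped on the opposite strand by Gm28836 and Gstt3 on the same strand by Gm20441, which had at most 2 and 1.04 counts in a library.

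The alpha class includes the enzymes that detoxify products of lipid peroxidation. Gsta3 (ENSMUSG00000025934, chr1:21240589-21265661), known in mouse for its activity towards aflatoxin epoxide, took between 93.5% and 98.9% of the alpha counts in each library. It lay between 2687 and 2909 CPM in WT corn oil, 1962 and 2728 in WT CITCO, 1676 and 2878 in hCAR/hPXR CITCO and 2529 and 2927 in Car KO/hPXR CITCO libraries. The log2 fold change between hCAR/hPXR CITCO and WT CITCO was -0.08, with a 95% confidence interval of -0.49 to 0.33, so a change of the size seen for Gstm3 lay outside the interval. It became 0.10 without hCAR/hPXR CITCO 3, which had the lowest value, and 0.03 without WT CITCO 3. In the other comparisons Gsta3 had log2 fold changes of 0.20, -0.28 and -0.23, with adjusted p-values (edgeR) of 0.685 or more.

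Gsta4 (ENSMUSG00000032348, chr9:78182774-78209349), whose enzyme conjugates the lipid peroxidation product hydroxynonenal, had means of 29.5 ± 8.8, 21.1 ± 1.79, 31.7 ± 14.6 and 25.4 ± 10.3 CPM in WT corn oil, WT CITCO, hCAR/hPXR and Car KO/hPXR livers (SD, n = 3 each). Its highest value, 48.4 CPM, was in hCAR/hPXR CITCO 3, and the other libraries of that group had 21.2 and 25.5 CPM. Over WT CITCO its log2 fold change in hCAR/hPXR livers was 0.55, and 0.14 without hCAR/hPXR CITCO 3. Gsta2 (ENSMUSG00000057933, chr9:78331018-78355788) ranged from 7.05 to 30.9 CPM, with all 4 groups overlapping. Neither was called in any comparison or alternative. Between hCAR/hPXR CITCO and WT CITCO DESeq2 gave neither gene an adjusted p. Gsta1, a near copy of Gsta2 that was not on the list, had 20.5, 27.5 and 44.1 estimated counts in hCAR/hPXR CITCO libraries, 0, 9.04 and 0 in WT CITCO and 6.31, 0 and 0 in Car KO/hPXR CITCO libraries. All hCAR/hPXR libraries lay above all others for Gsta1. Its adjusted p was 0.172 against WT CITCO and 0.0835 against Car KO/hPXR CITCO (edgeR), and limma on the transformed values called both. The sum of Gsta2 and its 4 near copies, which does not depend on how reads were divided among them, was 19.7, 31.2 and 80.9 CPM in hCAR/hPXR CITCO, 8.43, 19.4 and 24.6 CPM in WT CITCO, 19.7, 30.9 and 21.4 CPM in Car KO/hPXR CITCO and 26.4, 9.87 and 16.3 CPM in WT corn oil libraries. In this sum the hCAR/hPXR libraries overlapped all 3 other groups.

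The pi class rests on Gstp1 (ENSMUSG00000060803, chr19:4035407-4037985), a transferase known to be abundant in the liver of male mice. It was at 4464, 3744 and 3086 CPM in WT corn oil, 4648, 4389 and 3257 CPM in WT CITCO, 4346, 4285 and 4630 CPM in hCAR/hPXR CITCO and 1755, 3327 and 3898 CPM in Car KO/hPXR CITCO libraries. The groups overlapped except that all hCAR/hPXR libraries lay above all Car KO/hPXR libraries, and Car KO/hPXR CITCO 1 had the lowest value of the 12. Between the modified lines the log2 fold change was 0.56 (95% confidence interval 0.05 to 1.08, adjusted p = 0.425 by edgeR). Without Car KO/hPXR CITCO 1 it was 0.29. Adding the counts of Gstp-ps, the near copy with reads in these libraries, gave means of 3768, 4109, 4433 and 2996 CPM in WT corn oil, WT CITCO, hCAR/hPXR and Car KO/hPXR livers.

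The theta class is regarded as the oldest of the family and acts on small halogenated compounds. Gstt1 (ENSMUSG00000001663, chr10:75783813-75798584) was at 274, 256 and 258 CPM in WT corn oil and at 190, 194 and 252 CPM in WT CITCO libraries. It was at 190, 209 and 182 CPM in hCAR/hPXR CITCO and at 321, 291 and 299 CPM in Car KO/hPXR CITCO libraries. The Car KO/hPXR libraries were above all others, WT corn oil came next without overlap, and WT CITCO and hCAR/hPXR CITCO overlapped. The hCAR/hPXR CITCO mean of 194 ± 14.2 CPM stood against 304 ± 15.7 CPM in Car KO/hPXR CITCO (SD, n = 3 each), which in the fit was -0.65 on the log2 scale (standard error 0.15, 95% confidence interval -0.96 to -0.34). The adjusted p was 0.0536 by edgeR, just above the threshold. It was 0.000769 with DESeq2's Wald test, 0.0385 with limma on the transformed values and 0.0442 with DESeq2's size factors in edgeR, and it lay between 0.0602 and 0.188 with any 1 of the 6 libraries left out. Against WT CITCO, Car KO/hPXR CITCO had a Gstt1 log2 fold change of 0.52 (adjusted p = 0.172 by edgeR), called by DESeq2's Wald test (adjusted p = 0.0233).

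Gstt3 (ENSMUSG00000001665, chr10:75774115-75781414) lies beside Gstt1 on the same strand. Its means were 35.4 ± 6.67, 38.5 ± 12.2, 50.1 ± 2.55 and 64.8 ± 42 CPM in WT corn oil, WT CITCO, hCAR/hPXR and Car KO/hPXR livers (SD, n = 3 each). The last mean rests on 112 CPM in Car KO/hPXR CITCO 1, since the other libraries of the group had 33.4 and 48.5 CPM. The log2 fold change over WT CITCO was 0.78, and 0.09 without that library, and neither value was called. Gstt2, the remaining theta gene that was tested, was below Car KO/hPXR CITCO in all hCAR/hPXR CITCO libraries but was not called (log2 fold change -0.67, adjusted p = 0.438 by edgeR).

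The rest of the glutathione pathway was described by lists. Of 15 further transferase genes with values, 9 were tested and edgeR called 0 in each comparison. At an unadjusted p under 0.05 there were 2, 1, 3 and 1 in the order hCAR/hPXR CITCO against WT CITCO, Car KO/hPXR CITCO against WT CITCO, hCAR/hPXR against Car KO/hPXR and WT CITCO against WT corn oil. Of all genes, 8.81%, 9.3%, 10.6% and 9.13% passed this threshold. DESeq2 called 0 in each, and limma called Gsta1 as given above. The median log2 fold changes, in the same order, were -0.231, 0.053, -0.201 and -0.076. Over WT CITCO the medians of the 10 listed genes were 0.47 in hCAR/hPXR and 0.53 in Car KO/hPXR livers. With 1 library left out, the medians in hCAR/hPXR livers lay between 0.284 (without hCAR/hPXR CITCO 3) and 0.598 for the 10 and between -0.291 and -0.131 for the 9. In Car KO/hPXR livers they lay between 0.403 and 0.717 for the 10 and between -0.1 and 0.242 for the 9. Single genes of the lists overlapped widely, from -0.13 to 2.57 for the 10 and -0.62 to 3.28 for the 9 in hCAR/hPXR livers, and the difference between the lists was not tested.

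Genes that make and recycle glutathione, such as Gclc and Gclm for its rate-limiting synthesis and Gsr for its reduction, formed a list of 11, of which 10 were tested. EdgeR called 0 in each comparison, and 0, 2, 3 and 1 had an unadjusted p under 0.05. DESeq2 called Gclc, at 104 CPM in Car KO/hPXR CITCO and 166 CPM in WT CITCO livers, and limma called 0. Of the 7 glutathione peroxidases 2 were tested, Gpx1 and Gpx4, and neither was called by the 3 tools, with 0, 0, 0 and 1 at an unadjusted p under 0.05. Of 14 genes of the NRF2 pathway and its targets, Nfe2l2 (NRF2 itself) and Keap1 among them, 12 were tested. The 3 tools called 0 of these. An unadjusted p under 0.05 (edgeR) was found for 3, 1, 5 and 0, beside 8.81%, 9.3%, 10.6% and 9.13% of all genes. The median log2 fold changes of the 12 were 0.021, -0.005, 0.29 and -0.045.

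Genes that export, trim and acetylate glutathione conjugates formed a list of 17 with values, of which 13 were tested and 1 was called. Nat8, an N-acetyltransferase of the last step of mercapturic acid formation, was at 61.6, 53.9 and 47.8 CPM in WT CITCO and at 20.2, 28.9 and 25 CPM in hCAR/hPXR CITCO libraries. The groups did not overlap, and the WT corn oil libraries (55.1, 65.6 and 46.5 CPM) were like those of WT CITCO. Nat8 was thus lower in hCAR/hPXR CITCO than in WT CITCO livers, by 1.14 on the log2 scale (standard error 0.21). The adjusted p was 0.0185 in edgeR's quasi-likelihood test, and DESeq2 and limma called it as well. This call was lost without WT CITCO 1 (adjusted p = 0.11), WT CITCO 2 (0.0553), hCAR/hPXR CITCO 1 (0.114) or hCAR/hPXR CITCO 3 (0.059, edgeR in each case). In Car KO/hPXR CITCO libraries Nat8 was at 30.5, 32.6 and 26.3 CPM, also below all WT libraries, with a log2 fold change of -0.87 over WT CITCO (adjusted p = 0.11 by edgeR).

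For scale, 8 reference genes of CAR and PXR were tested in the same fit. Between hCAR/hPXR CITCO and WT CITCO 5 were called higher, all cytochrome P450 genes, and 2 were called lower, the receptor genes Nr1i2 and Nr1i3 themselves. The log2 fold changes were 2.02 for Cyp3a11 and 1.93 for Cyp2c29, and both were called under all alternatives. The calls of Cyp3a25 (1.17) and Cyp2c55 (4.25) were lost without WT CITCO 1, that of Cyp3a25 also without WT CITCO 2, and that of Cyp2c55 also without WT CITCO 3, hCAR/hPXR CITCO 2 or hCAR/hPXR CITCO 3. Cyp2b10 was at 146, 167 and 153 CPM in hCAR/hPXR CITCO libraries and at 0 to 4.15 CPM in the other 9. In this fit Gstm3, at 2.57, thus differed by more than Cyp3a11 and Cyp2c29 on the log2 scale, with standard errors of 0.38, 0.26 and 0.22. Over the alternatives the value of Gstm3 ran from 1.81 to 3.05, so the order is given for the main fit only. The differences between genes were not tested. Between the hCAR/hPXR and Car KO/hPXR groups, edgeR called 3 of the 8, Cyp2b10, Cyp2c29 and Cyp2c55, all higher. DESeq2 called 4, Cyp2b10, Cyp2c29, Cyp3a11 and Por, and limma called the same 3 as edgeR. Cyp2c55, which had few counts, was given no adjusted p by DESeq2 in this comparison or against WT CITCO. The Cyp2c55 call was lost without any 1 of hCAR/hPXR CITCO 1, 2 and 3 or Car KO/hPXR CITCO 1 and 3. Between Car KO/hPXR CITCO and WT CITCO edgeR and limma called Nr1i2 and Nr1i3, both lower. DESeq2 called these and also Cyp3a11 and Cyp3a25, which were at 0.99 and 0.90 on the log2 scale with no overlap of libraries (adjusted p = 0.114 and 0.0766 by edgeR). Between WT CITCO and WT corn oil edgeR, DESeq2 and limma called 0 of the 8. At an unadjusted p under 0.05 (edgeR) there were 3, beside 9.13% of all genes.

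**Figure D4:**
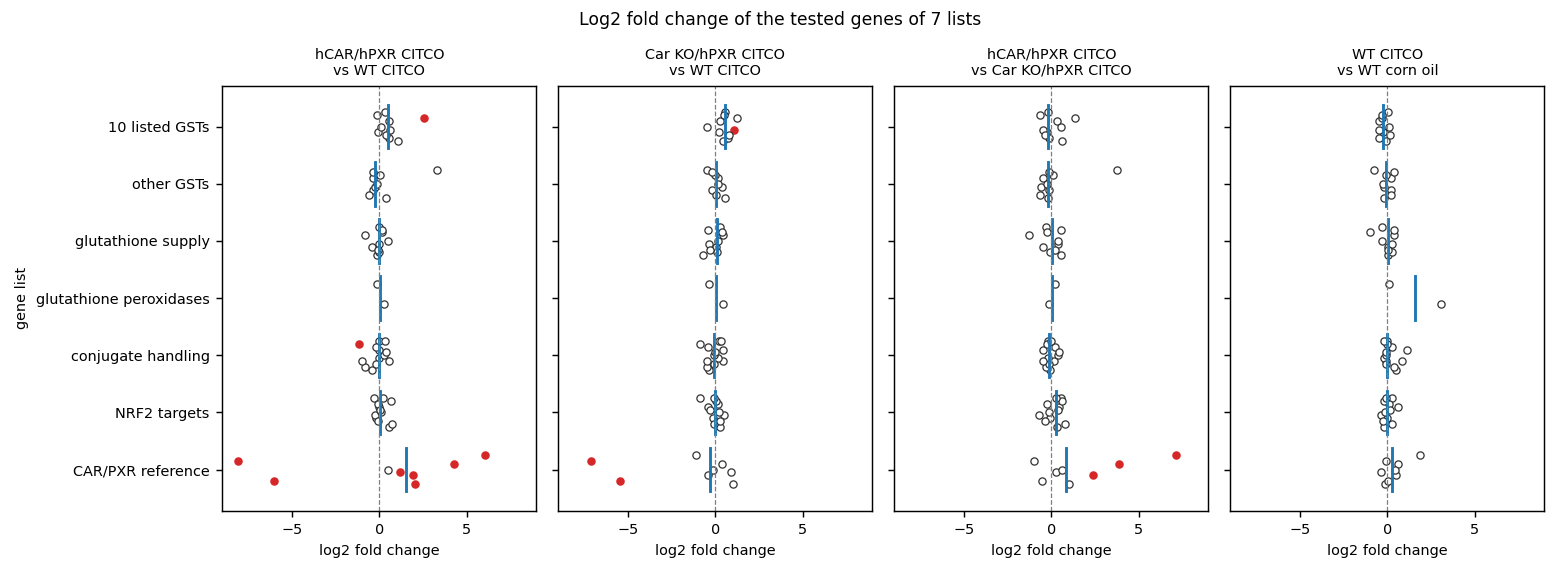
Log2 fold change (horizontal axis) of the tested genes of 7 lists (vertical axis, points spread for legibility) in the 4 comparisons; filled points are called and blue bars are list medians. The 10 listed transferases have medians of 0.47 and 0.53 over WT CITCO, and the widest values of the CAR and PXR reference genes are those of Nr1i2, Nr1i3, Cyp2b10 and Cyp2c55, which have groups near 0 counts.

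Among all 8594 genes, those with the profile nearest to Gstm3 over the 12 libraries were sought by the root-mean-square difference of log2 CPM, each gene centred on its own mean. Cyp3a11 was nearest, at 0.515, followed by Bak1 (0.631), Mnat1 (0.651), Itfg2 (0.674) and Cyp2a5 (0.691). Gstm3 itself departed from its mean by 1.09 on this scale. Cyp3a11, the main PXR-responsive P450 of mouse liver, was at 3865, 3531 and 3488 CPM in hCAR/hPXR CITCO libraries, 1358, 2423 and 1551 CPM in Car KO/hPXR CITCO, 756, 811 and 1121 CPM in WT CITCO and 1365, 702 and 907 CPM in WT corn oil libraries. As for Gstm3, its Car KO/hPXR mean lay between those of WT CITCO and hCAR/hPXR CITCO. Bak1, Mnat1 and Itfg2 were at 11.4 CPM or less in every library, where counting error is large, and only Cyp3a11 of the 5 was called in any comparison by edgeR. These genes were chosen for their likeness to Gstm3, so their values are a description.

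**Figure D5:**
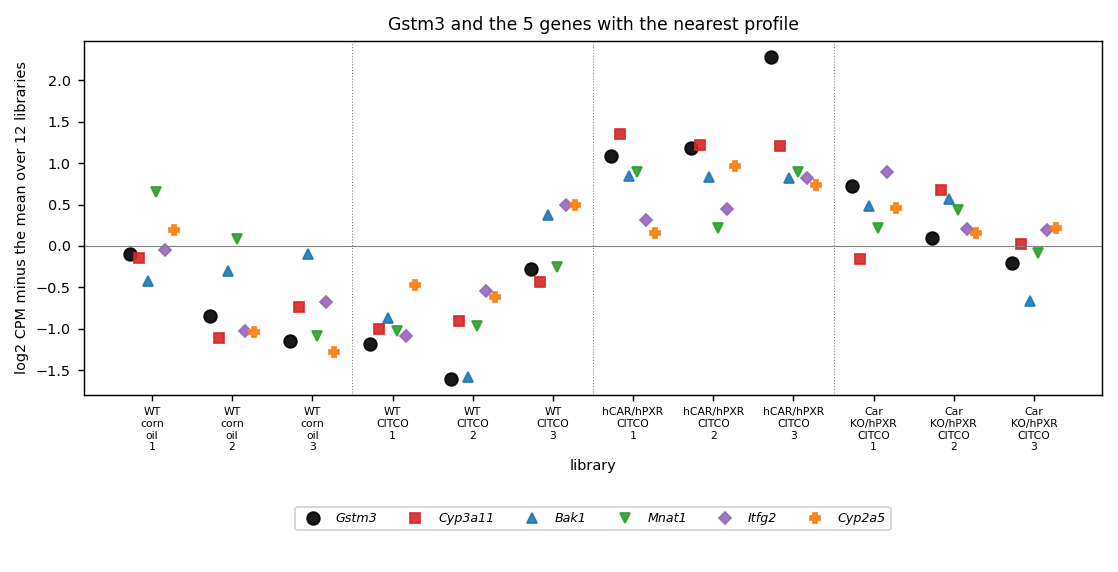
Log2 CPM minus each gene's mean over the 12 libraries (vertical axis) for Gstm3 and the 5 genes with the nearest profile, by library (horizontal axis, groups divided by dotted lines); each point is 1 gene in 1 library. Gstm3 and Cyp3a11 are both above their own means in all 3 hCAR/hPXR CITCO libraries and below them in all 3 WT CITCO libraries.

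Liver is a mixture of cells, and in bulk RNA fewer cells of a type and less RNA per cell cannot be told apart. Marker lists were therefore summed in each library. The 12 markers of pericentral hepatocytes, led by Cyp2e1, summed to 3950 CPM in hCAR/hPXR CITCO 3 and to between 5243 and 7031 CPM in the other 11 libraries. The 11 periportal markers, led by Pck1, summed to 5476 to 8339 CPM. Of these 2 lists 10 and 11 genes were tested and edgeR called 0 in each comparison. At an unadjusted p under 0.05 there were 3, 3, 1 and 2 pericentral and 3, 4, 1 and 4 periportal genes. The shares of all genes at this threshold were 8.81%, 9.3%, 10.6% and 9.13%. The periportal medians were 0.153, 0.363, -0.245 and -0.428 and the pericentral medians -0.122, 0.018, -0.202 and 0.073, in the order of comparisons used above. The periportal medians had the same sign as those of the 10 listed genes (0.47, 0.53, -0.17 and -0.268) in all 4 comparisons. The comparisons share libraries, so the 4 signs of any list are not independent of each other. DESeq2 called the periportal gene Hal in both comparisons of WT CITCO with Car KO/hPXR CITCO and with WT corn oil, and limma called it in the former.

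Of the other cells, 10 Kupffer cell markers, led by Cd5l, summed to 302 to 597 CPM, 8 endothelial markers, led by Kdr, to 191 to 254 CPM, and 8 stellate cell markers, led by Dcn, to 229 to 438 CPM. Red cell genes, led by Hba-a2, summed to 1859 to 3988 CPM. The medians, in the order of comparisons used above, were -0.017, -0.315, 0.385 and 0.478 for Kupffer cells, -0.293, -0.383, 0.145 and 0.268 for endothelial cells and -0.206, -0.343, 0.093 and 0.176 for stellate cells. These had the opposite sign to the medians of the 10 listed genes, though the value of -0.017 came from 5 Kupffer genes above 0 and 5 below. The red cell medians were -0.538, -0.158, -0.336 and -0.016, of the same sign as those of the 10 in 2 of the 4 comparisons, and the 1 bile duct gene tested had 0.43, 0.62, -0.19 and -0.74, of the same sign in all 4. No list of these other cells held a gene called by edgeR, DESeq2 or limma, with at most 3 genes of a list at an unadjusted p under 0.05 in a comparison. Between hCAR/hPXR CITCO and WT CITCO these were 3 of the 5 red cell genes tested, beside 8.81% of all genes, and all 5 were below 0. Among the 9 hepatocyte markers tested, edgeR and limma called 0. At an unadjusted p under 0.05 there were 1, 0, 1 and 1, beside 8.81%, 9.3%, 10.6% and 9.13% of all genes. DESeq2 called Fgb in both comparisons of hCAR/hPXR CITCO with the other CITCO groups. No marker gene was at 0 in all libraries. Their part in the values of the 10 genes was not tested.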

How the data were processed

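The authors deposited a table of expected counts from RSEM and a table of log2 variance-stabilised values from DESeq2. By the submitters' processing notes, reads were checked with FastQC 11.7, trimmed with Trimmomatic 36, aligned with STAR 2.5.2 to GRCm38 and counted with RSEM 1.3 on the Ensembl annotation; the strand setting of the counting was not given in the sources used here. No reads were processed again.

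The deposited expected counts were rounded to whole numbers. The deposited log2 variance-stabilised values were used only for gene symbols and in 1 alternative. Genes were filtered with filterByExpr (8594 of 51912 kept), libraries scaled by TMM, and 1 quasi-likelihood model with a mean per group was fitted to all 12 libraries in edgeR 4.0.16 under R 4.3.3. Genes with an adjusted p (Benjamini-Hochberg) under 0.05 were called. Library totals were 1167027 to 2341572 counts. CPM are TMM-scaled, SDs are of CPM, and log2 fold changes come from the fit.

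The 10 genes were given by name. The lists were other transferases, glutathione supply, peroxidases, conjugate handling, the NRF2 pathway and its targets, CAR and PXR reference genes, and cell markers. The 10 genes and the lists were chosen with earlier results from these data known. The code was tested on simulated data, with and without changed genes. Alternatives were DESeq2 1.42.0 (Wald test, and its size factors in edgeR), limma 3.58.1, no filter, only the 6 libraries compared, a replicate block, a fold over 1.5, and each library left out. Gene positions were those of GENCODE M21 on GRCm38, another annotation release than that of the authors. Sequences and figures were handled in Python 3.11.15 with matplotlib 3.10.9.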

Additional observations from a re-analysis of the deposited data

How the results depend on the processing

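With 3 libraries a group, 1 library left out often changed the number of genes called. Over all genes, 35 were called between hCAR/hPXR CITCO and WT CITCO, 184 without the filter on low counts, 74 by DESeq2, 14 without WT CITCO 1, 22 without hCAR/hPXR CITCO 3 and 34 without hCAR/hPXR CITCO 2. Between Car KO/hPXR CITCO and WT CITCO the number was 22, and 227 without the filter, 75 by DESeq2, 40 with only the 6 libraries compared, and 5, 6, 59, 14 and 9 without WT CITCO 1, 2 and 3 and Car KO/hPXR CITCO 1 and 3. Between the modified lines it was 50, and 233 without the filter, 120 by DESeq2, and 23, 63, 28, 20 and 9 without hCAR/hPXR CITCO 1, 2 and 3 and Car KO/hPXR CITCO 1 and 3. Between WT CITCO and WT corn oil it was 20, and 179 without the filter, 48 by DESeq2, and 7, 9, 5, 7 and 57 without WT corn oil 2 and 3 and WT CITCO 1, 2 and 3. The cause was not tested.

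Of the 10 genes, 1 was called between hCAR/hPXR CITCO and WT CITCO, and 2 without the filter or without hCAR/hPXR CITCO 2. Between Car KO/hPXR CITCO and WT CITCO 1 was called, 2 without the filter, and 3 by DESeq2, beside 2.05% of the 3665 genes it tested. The number was 0 without WT CITCO 1, WT CITCO 2, Car KO/hPXR CITCO 1 or Car KO/hPXR CITCO 2. Between the modified lines 0 were called, 1 with DESeq2 size factors and by limma, and 2 without the filter and by DESeq2.

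The direction of a listed gene reversed in 19 cases, all of genes that were not called. Gsta2 between WT CITCO and WT corn oil, at 0.01, was -0.0074 without the filter and -0.0557 with a replicate block. The replicate block, which treats the library number as a batch, changed the call of 0 of the 10 genes and gave 33, 24, 53 and 20 genes. Library numbers may or may not mark animals or batches handled together. After group means were removed, libraries with the same number correlated at -0.051 to 0.075 in the 4 comparisons. Yet 8 of 12 correlated best with their own number, and how many would do so without a link was not computed.

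With 1 library left out, between hCAR/hPXR CITCO and WT CITCO the log2 fold changes ran from -0.27 (without hCAR/hPXR CITCO 3) to 0.69 for Gsta2, -0.29 to 0.10 for Gsta3, -0.0317 to 0.21 for Gstp1 and -0.20 to 0.0159 for Gstt1. Without reversal, those of Gstm1 ran from 0.48 to 1.33 (called at the upper end, without hCAR/hPXR CITCO 2). Between Car KO/hPXR CITCO and WT CITCO the range was -0.11 to 0.50 for Gsta4, and 0.85 to 1.24 for Gstm2, whose call was lost in 4 of 6 cases. Between the modified lines it was -0.81 to 0.13 for Gsta2, -0.11 to 0.66 for Gsta4 and -0.69 to 0.29 for Gstt3, the last without Car KO/hPXR CITCO 1. Between WT CITCO and WT corn oil it was -0.33 to 0.51 for Gsta2, -0.29 to 0.0111 for Gstm1, -0.80 to 0.0877 for Gstm3, -0.0021 to 0.27 for Gstp1 and -0.0614 to 0.37 for Gstt3.

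The median of the 9 other transferases between Car KO/hPXR CITCO and WT CITCO, at 0.053, ran from -0.1 to 0.242 with 1 library left out. Between WT CITCO and WT corn oil, at -0.076, it ran from -0.274 to 0.096 and was 0.052 with only the 6 libraries compared.

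Gstm3 between hCAR/hPXR CITCO and WT CITCO was called throughout, at 1.81 to 3.05. DESeq2 also called Gstm4 (0.71) and Gstt1 between Car KO/hPXR CITCO and WT CITCO, and Gstm3 and Gstt1 between the modified lines.

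Among these samples the humanised lines had no corn oil group, so genotype and CITCO cannot be told apart in them. Bulk RNA does not measure protein or enzyme activity. With 3 libraries a group, a p-value over the threshold does not show that a gene was the same in both groups.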
